A study of Mus musculus with 11 samples.

Results

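The Notch pathway genes described here are 3 receptors (Notch1, Notch2 and Notch3), 5 ligands (Dll1, Dll3, Dll4, Jag1 and Jag2) and 2 fringe glycosyltransferases (Lfng and Mfng). They were chosen by symbol from a list and not by a rule on their measured values, but with earlier results of these data known. All 10 were found among the 38197 genes of the count table, and all 10 passed the filter on low counts. They were followed through 11 libraries of polyadenylated RNA from E14 mouse embryonic stem cells, a wild-type cell line of strain 129 grown as a monolayer and turned towards ventral hindbrain neurons with RA (retinoic acid) and SAG, an agonist of the hedgehog transducer Smoothened. Both agents were applied from day 0 to day 3. The groups were undifferentiated cells at day 0, whole cultures at days 1, 2 and 3 (2 libraries each), and neural progenitors selected with Prominin-1, a protein on the surface of neuroepithelial cells (3 libraries). The sorted group is labelled day 3.5 by cell status and 3 days by cell type, and is called day 3.5 here. Libraries of each group carry replicate numbers, but the labels do not say that they come from separate cultures, so p-values measure the spread between these libraries, which may be technical.

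Notch receptors are cell-surface proteins that are cut when a ligand on a neighbouring cell binds them. The freed intracellular part enters the nucleus, joins the DNA-binding protein RBPJ and switches on genes of the Hes and Hey families. In the embryonic nervous system, cells that begin to become neurons display Delta-like ligands and hold their neighbours as progenitors, a process called lateral inhibition. Fringes lengthen the fucose sugars on the receptors' extracellular repeats, which changes how strongly Delta-like and Jagged ligands act.

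Library totals ran from 13173674 to 30384599 counts, with the 3 sorted libraries the shallowest. The 6 naive pluripotency markers summed to between 615 and 1040 CPM (counts scaled to library size) at day 0 and to at most 148 from day 1 on. The 8 neural progenitor markers summed to between 1629 and 1945 CPM in the sorted libraries and to between 1271 and 1289 on day 3, and Prom1, the gene of the sorted protein, was not called between them (298 against 239 CPM, adjusted p = 0.315 in edgeR). The 8 neuron markers summed to between 967 and 1534 CPM in the sorted libraries and to between 987 and 1204 CPM on day 3, so RNA of these markers was present in the sorted cells. The same list already summed to between 349 and 379 CPM in undifferentiated day 0 cells. At day 3 against day 0, 7 of the 8 were called higher and Stmn2 lower. In RNA from whole cultures, fewer cells of a type and less RNA per cell cannot be told apart.

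In the Notch genes the replicate libraries stood apart at the earliest days, while the median over all genes tested stayed near 0. At day 0 all 10 genes were higher in replicate 1 than in replicate 2, where 48.6% of all genes tested were. Their median gap was 1.07 on the log2 scale, against -0.01 over all genes tested. At day 1 all 10 were higher in replicate 2, while 48.7% of all genes tested were higher in replicate 1. The median gap was -0.78 for replicate 1 minus replicate 2, against -0.01 over all genes tested. At day 2 the genes split 4 to 6, and at day 3 they split 7 to 3. Jag1, whose longest transcript has the lowest GC content of the 10 (48.8%), had gaps of 0.14 and -0.01 at days 0 and 1. Jag2, with the highest GC content (61.9%), had gaps of 1.69 and -1.49. Between these ends, Dll4 (55.9%, few counts) had gaps of 2.27 and -1.12, and Dll1 (54.9%) had gaps of 1.07 and -0.24. The median GC content of the genes tested was 49.7%. The part of GC content in these gaps was not tested. A fit with a GC offset per library, chosen after the data were seen, is given below where it changes a call.

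**Figure D1:**
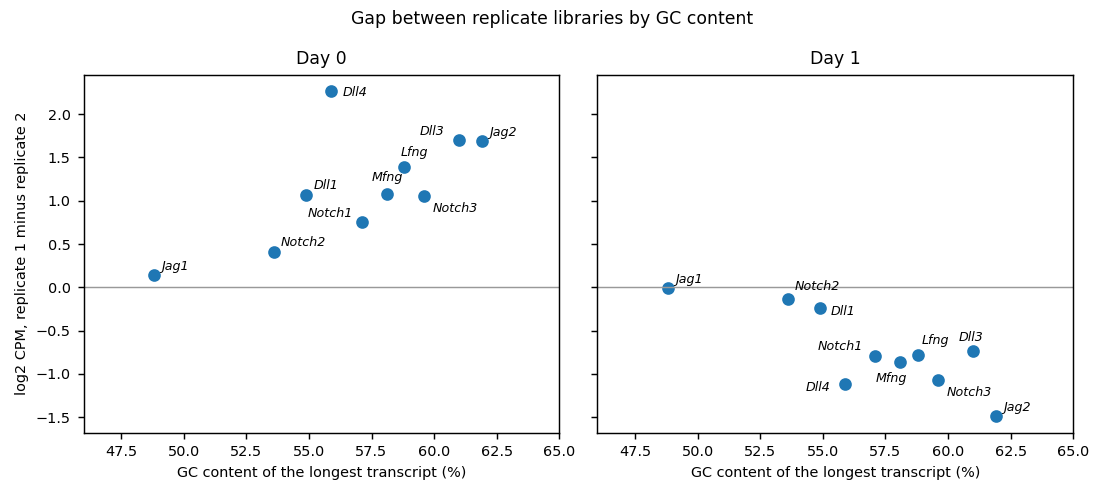
Each point is a Notch receptor, ligand or fringe gene. The x axis is the GC content of its longest transcript (%) and the y axis the log2 CPM of replicate 1 minus replicate 2 on day 0 (left) and day 1 (right), with Jag1 near 0 on both days, all 10 genes above 0 on day 0 and none above 0 on day 1.

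The proximal promoters of the genes are shown because the factors that act in this culture read short motifs. Among them are proneural proteins that bind E-boxes (CAGCTG or CAGATG) and the Notch partner RBPJ (core TGGGAA). Others are hedgehog-regulated GLI proteins (core GACCACCCA) and retinoic acid receptors (AGGTCA, only a part of their full site). RefSeq promoters of build GRCm38.p6, from 250 bases before to 50 after the transcript start, were matched for 9 of the 10 genes, which gave 10 promoters since Dll1 has 2. Both strands were searched and no match overlapped another. The E-box CAGCTG was found in 4 of the 10 promoters and in 16.3% of the 32851 mouse promoters of the same length in the table. Those 4 are printed 5′ to 3′ on the gene's strand, and capitals mark CAGCTG and, in Lfng, also TGGGAA or its reverse complement TTCCCA.

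Dll1 second promoter, chr17:15376883-15377182, minus strand: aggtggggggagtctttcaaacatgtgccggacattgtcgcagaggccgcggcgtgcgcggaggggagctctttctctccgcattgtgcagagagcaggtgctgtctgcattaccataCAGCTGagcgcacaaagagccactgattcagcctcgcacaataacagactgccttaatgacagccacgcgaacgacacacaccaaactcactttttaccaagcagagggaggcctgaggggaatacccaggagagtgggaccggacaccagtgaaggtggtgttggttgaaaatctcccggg
Dll3 promoter, chr7:28301736-28302035, minus strand: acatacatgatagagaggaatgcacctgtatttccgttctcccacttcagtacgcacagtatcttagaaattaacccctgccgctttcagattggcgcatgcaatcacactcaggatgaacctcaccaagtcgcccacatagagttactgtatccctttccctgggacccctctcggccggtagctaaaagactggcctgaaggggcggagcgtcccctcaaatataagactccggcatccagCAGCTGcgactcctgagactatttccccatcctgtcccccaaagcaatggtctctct
Jag1 promoter, chr2:137116471-137116770, minus strand: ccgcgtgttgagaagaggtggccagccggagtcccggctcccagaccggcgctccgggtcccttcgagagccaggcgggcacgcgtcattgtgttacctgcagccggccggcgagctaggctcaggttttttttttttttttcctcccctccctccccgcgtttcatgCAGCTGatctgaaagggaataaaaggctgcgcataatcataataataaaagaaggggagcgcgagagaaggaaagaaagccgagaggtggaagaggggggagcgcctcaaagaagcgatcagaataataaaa
Lfng promoter, chr5:140607091-140607390, plus strand: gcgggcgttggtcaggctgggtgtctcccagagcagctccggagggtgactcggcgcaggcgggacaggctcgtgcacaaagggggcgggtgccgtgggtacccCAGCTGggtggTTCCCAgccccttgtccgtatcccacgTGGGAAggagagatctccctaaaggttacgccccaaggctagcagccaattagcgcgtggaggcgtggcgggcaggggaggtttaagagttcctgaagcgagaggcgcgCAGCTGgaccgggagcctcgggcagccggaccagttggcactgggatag

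Counted from the transcript start as position 1, CAGCTG began at -132 in Dll1, at -7 in Dll3, at -82 in Jag1, and at -146 and 2 in Lfng. Lfng was also the single promoter of the 10 with the RBPJ core, at -108 and, on the other strand, at -135. That core stands in 25.6% of all promoters. The first Dll1 promoter held AGGTCA, a part of the retinoic acid receptor site, at -109. That match was found in 16.3% of all promoters. CAGATG (17.2% of all promoters) and GACCACCCA (0.253%) were found in 0 of the 10. A match shows only that these letters are in the window, and binding was not measured.

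The receptors, ligands and fringes of the set rose together on day 2. Between days 0 and 1 they split: Notch2 and Dll1 rose and Notch3 and Jag1 fell, while the other 6 were not called. Between days 1 and 2, 8 of the 10 rose and the other 2, Dll3 and Jag2, were higher in both day 2 libraries without passing the test. By day 3 all 10 stood above day 0. In the test of any change over days 0 to 3 (edgeR, adjusted p under 0.05), 9 of the 10 were called, where 53.7% of all genes tested were called. Jag2 was the exception, with an adjusted p of 0.0856.

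**Figure D2:**
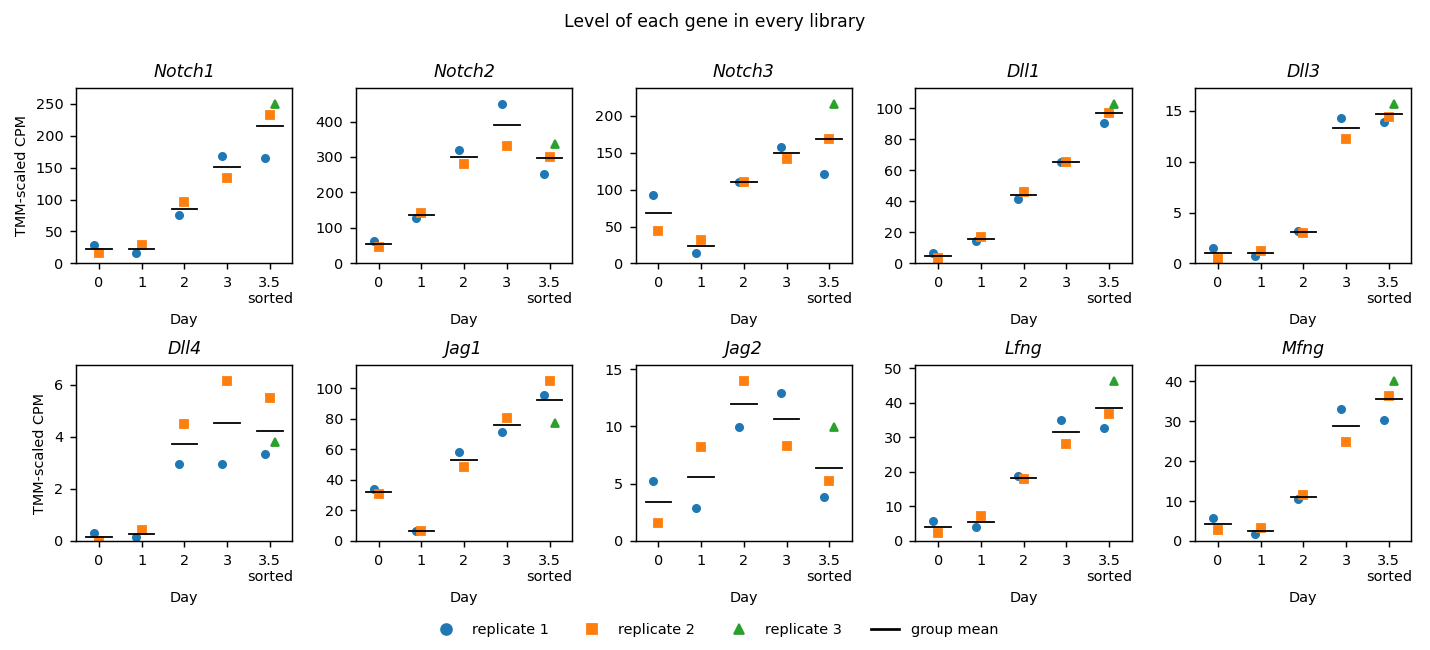
Each panel shows a gene's level in CPM scaled by TMM (a library-size correction) in every library (y axis, from 0) by day (x axis), with a symbol per replicate and a line at the group mean. Jag1 and Notch3 are lowest at day 1, and Dll1 climbs from a mean of 5.04 CPM on day 0 to 96.8 CPM in the sorted day 3.5 cells.

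For day 1 against day 0, 2 genes were called higher, where 12.0% of all genes tested were, and 2 were called lower, where 8.91% were. The same 4 genes were those whose libraries did not overlap between the days. Of all genes tested, 29.1% lay higher and 26.5% lower without overlap. For day 2 against day 1, 8 were called higher, against 9.65% of all genes tested, and 0 were called lower, against 9.99%, with 0 lower also at an unadjusted p under 0.05 in edgeR, DESeq2 and limma on the deposited log2 values. All 10 had both day 2 libraries above both day 1 libraries, a pattern shown by 34.8% of all genes tested. On day 3, 1 was called higher, against 2.81% of all genes tested, and 0 lower, against 1.26%, again with 0 at an unadjusted p under 0.05 by the same 3 tools. With a GC offset 6 were called higher here (Notch1, Notch3, Dll3, Jag1, Lfng and Mfng), where 8.29% of all genes were. Here 8 of the 10 had both day 3 libraries above both day 2 libraries, against 30.6%. For day 3 against day 0, all 10 were called higher, against 27.6% of all genes tested (26.3% were called lower), and all 10 had both day 3 libraries above both day 0 libraries, against 39.8%. That count of calls fell to 8 with a GC offset, on log2(FPKM + 0.1) and on unfiltered log2(FPKM + 1), each time without Notch3 and Jag2. In these settings 30.3%, 26.9% and 17.9% of all genes were called higher. The genes' median log2 fold changes in these 4 comparisons were 0.23, 1.82, 0.55 and 2.79, and the medians over all genes tested lay between -0.01 and 0.02. The first and the second comparison share the day 1 libraries, so a low value at day 1 enters both.

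**Figure D3:**
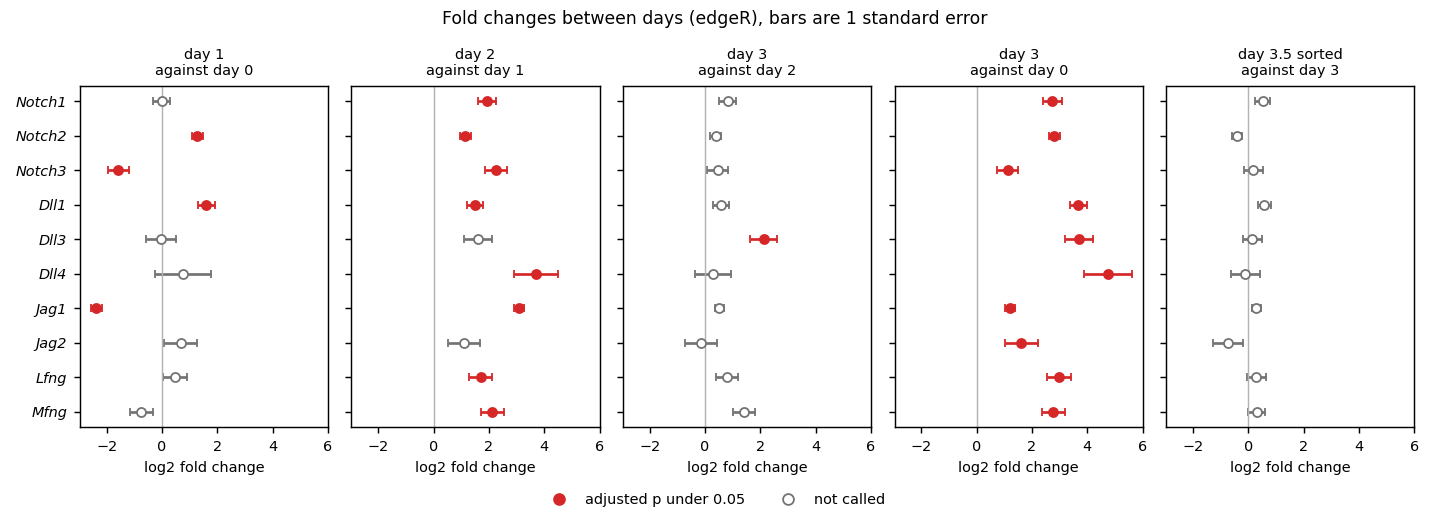
Points are edgeR log2 fold changes (x axis) of each gene (y axis) in 5 comparisons, bars are 1 standard error, and filled points passed an adjusted p of 0.05. The day 2 against day 1 panel holds 8 filled points to the right of 0, and the day 3.5 against day 3 panel holds none.

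Notch1 (chr2:26457903-26516663, minus strand, GRCm38 in the GENCODE M21 annotation) averaged 22.4 CPM at both day 0 and day 1 and then climbed. It stood at 28.2 and 16.7 CPM on day 0, 16.4 and 28.4 on day 1, 75.4 and 95.9 on day 2, 169 and 133 on day 3, and 165, 232 and 250 in the sorted cells. The ranges of days 0 and 1 overlapped almost completely, and days 1, 2 and 3 did not overlap. Notch1 rose 3.81-fold from day 1 to day 2 (log2 1.93 ± 0.32 SE, adjusted p = 0.00371, edgeR). From day 2 to day 3 the log2 difference of 0.82 ± 0.31 missed the threshold (adjusted p = 0.166), and it passed with a GC offset (0.83, adjusted p = 0.0045) and without a filter on low counts (0.82, adjusted p = 0.0276). Day 3 was 6.68-fold above day 0 (adjusted p = 0.000151).

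Notch2 (chr3:98013527-98150361, plus strand), the paralog nearest to Notch1 in domain layout, was the 1 receptor called higher on day 1. Its levels were 63.5 and 47.6 CPM on day 0, 129 and 142 on day 1, 319 and 281 on day 2, 451 and 332 on day 3, and 252, 300.4 and 338 in the sorted cells. Each day from 0 to 3 lay above the day before without overlap. Notch2 rose 2.43-fold on day 1 (log2 1.28 ± 0.20 SE, adjusted p = 0.00336, edgeR) and 2.21-fold on day 2 (log2 1.14 ± 0.20 SE, adjusted p = 0.00515). The day 2 call was lost without day 2 replicate 1 (log2 1.06, adjusted p = 0.0526). Day 3 against day 2 was not called (log2 0.39 ± 0.20 SE, adjusted p = 0.307).

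Notch3 (chr17:32120820-32166852, minus strand), which in adult tissue is best known from the muscle cells around arteries, dipped before it climbed. It was at 92.8 and 44.4 CPM on day 0, 14.8 and 31.2 on day 1, 110.1 and 111 on day 2, 158.5 and 142 on day 3, and 122, 168 and 217 in the sorted cells. Both day 1 libraries were below both day 0 libraries, and days 2 and 3 were above both. The fall on day 1 was 3.00-fold (log2 -1.59 ± 0.38 SE, adjusted p = 0.0196, edgeR). It was no longer called without day 0 replicate 1 (-0.96, adjusted p = 0.0908) or without day 1 replicate 1 (-1.15, adjusted p = 0.0608). The return on day 2 was 4.78-fold (log2 2.26 ± 0.39 SE, adjusted p = 0.00474). The excess of day 3 over day 0 was the smallest of the 3 receptors (2.18-fold, adjusted p = 0.03). It lost its call with a GC offset (0.31, adjusted p = 0.0551), without day 0 replicate 2 (0.69, adjusted p = 0.147), and without day 3 replicate 1 (1.04, adjusted p = 0.129) or replicate 2 (1.21, adjusted p = 0.0775). Of the 6 pericyte and smooth muscle markers, Acta2 and Tagln were called lower on day 1 and higher on day 2, and the other 4 were not called on either day. On day 1 Pdgfrb, Rgs5 and Myh11 had the higher means (7.51 against 4.27, 0.359 against 0.0934 and 1.60 against 1.01 CPM). The 6 genes summed to between 165 and 198 CPM on day 0, 47.0 and 77.0 on day 1, 256 and 347 on day 2, and 607 and 822 on day 3, and their part in the Notch3 result was not tested.

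Dll1 (chr17:15367354-15376872, minus strand), the ligand through which new neurons restrain their neighbours, climbed at every step. Its levels were 6.85 and 3.23 CPM on day 0, 14.2 and 16.8 on day 1, 41.7 and 45.8 on day 2, 65.3 and 65.6 on day 3, and 90.4, 96.8 and 103 in the sorted cells. No 2 neighbouring groups overlapped, which held for no other of the 10 genes. Dll1 rose 3.04-fold on day 1 (log2 1.60 ± 0.31 SE, adjusted p = 0.00742, edgeR) and 2.82-fold on day 2 (log2 1.49 ± 0.29 SE, adjusted p = 0.00858). Without day 2 replicate 2 the day 2 call was lost (log2 1.43, adjusted p = 0.0511). Day 3 was 12.8-fold above day 0 (adjusted p = 2.92e-05), while day 3 against day 2 was not called (log2 0.59 ± 0.29 SE, adjusted p = 0.29).

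Dll3 (chr7:28293553-28302238, minus strand), a divergent ligand that acts within the cell against Notch rather than across cells, came latest. It had 1.56 and 0.425 CPM on day 0, 0.719 and 1.26 on day 1, 3.15 and 3.00 on day 2, 14.3 and 12.3 on day 3, and 13.9, 14.4 and 15.7 in the sorted cells. Days 0 and 1 overlapped, and day 3 was clear of day 2. Dll3 rose 4.35-fold from day 2 to day 3 (log2 2.12 ± 0.48 SE, adjusted p = 0.0436, edgeR). This call did not hold when any of the 4 libraries of days 2 and 3 was left out (adjusted p between 0.0934 and 0.338), and the neuron marker list moved with it, from a summed 112 to 133 CPM on day 2 to 987 to 1204 CPM on day 3 with 8 of 8 genes called higher. At day 0 the same list had summed to between 349 and 379 CPM. The part of these markers in the Dll3 result was not tested. Day 2 against day 1 came close to the threshold (log2 1.62 ± 0.51 SE, adjusted p = 0.0529) and passed it in DESeq2 (adjusted p = 0.00602). Day 3 was above day 0 by 3.70 ± 0.52 on the log2 scale (adjusted p = 0.000401).

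Dll4 (chr2:119325784-119335962, plus strand), known best from sprouting blood vessels and also made in ventral spinal progenitors, was barely detected before day 2. Its counts were 9 and 0 on day 0, where a count of 0 allows up to 3, then 4 and 13 on day 1, 79 and 123 on day 2, 93 and 188 on day 3, and 56, 85 and 52 in the sorted cells. In CPM that was at most 0.408 through day 1 and between 2.94 and 6.14 at days 2 and 3. Dll4 rose on day 2 (log2 3.70 ± 0.79 SE, adjusted p = 0.0124, edgeR), and the call was lost without day 1 replicate 1 (3.18, adjusted p = 0.056) or day 2 replicate 2 (3.38, adjusted p = 0.0582). The fold against days 0 and 1 rests on few counts and is imprecise. The 8 endothelial markers summed to between 43.3 and 45.3 CPM on day 1 and to between 33.0 and 33.9 CPM on day 2, where 3 of the 7 tested rose (Cdh5, Kdr and Flt1), 2 fell (Pecam1 and Tek) and Emcn was at 0. Their part in the Dll4 result was not tested.

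Jag1 (chr2:137081456-137116644, minus strand), the Jagged ligand of many epithelia and vessel walls, gave the clearest dip and return. It stood at 33.9 and 30.8 CPM on day 0, 6.25 and 6.31 on day 1, 58.2 and 48.4 on day 2, 71.2 and 80.7 on day 3, and 95.6, 105 and 77.5 in the sorted cells. Replicates lay close together at each day from 0 to 3 and no neighbouring pair of those days overlapped. Jag1 fell 5.18-fold on day 1 (log2 -2.37 ± 0.19 SE, adjusted p = 0.000171, edgeR) and rose 8.44-fold on day 2 (log2 3.08 ± 0.19 SE, adjusted p = 7.41e-05). Both calls held in every alternative run, with adjusted p at most 0.0148 for the fall and 0.007 for the rise. Acta2 and Tagln, contractile genes of smooth muscle and the 2 of 6 pericyte and smooth muscle markers called on those days, moved in the same directions: Acta2 had mean levels of 60.9, 6.39 and 87.7 CPM at days 0, 1 and 2. Pdgfrb, Rgs5 and Myh11, not called on those days, had higher means on day 1 than on day 0, opposite to Jag1. The part of these markers in the Jag1 result was not tested. Day 3 was 2.33-fold above day 0 (log2 1.22 ± 0.18 SE, adjusted p = 0.000443).

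Jag2 (chr12:112907819-112929776, minus strand), the second Jagged ligand, varied widely between replicates at days 0 and 1. Its levels were 5.26 and 1.57 CPM on day 0, 2.88 and 8.22 on day 1, 9.96 and 13.9 on day 2, 12.9 and 8.29 on day 3, and 3.85, 5.24 and 9.95 in the sorted cells. Overlaps between the days left day 2 against day 1 as the single step with separate groups. That step was not called (log2 1.10 ± 0.59 SE, adjusted p = 0.21, edgeR). Day 3 against day 0 passed narrowly (log2 1.62 ± 0.60 SE, adjusted p = 0.0461) and passed in 8 of 18 alternative fits. It failed with the GC offset (0.64, adjusted p = 0.0931), the omission of day 0 replicate 2 (1.01, adjusted p = 0.187), of day 2 replicate 1 (adjusted p = 0.0592) or replicate 2 (0.0541), and of day 3 replicate 1 (1.26, adjusted p = 0.219) or replicate 2 (1.91, adjusted p = 0.0685).

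Lfng (chr5:140607320-140615545, plus strand), the fringe of the segmentation clock and of neural tube zones, had 5.80 and 2.17 CPM on day 0, 4.10 and 7.09 on day 1, 18.8 and 17.8 on day 2, 35.1 and 27.9 on day 3, and 32.7, 36.8 and 46.3 in the sorted cells. Days 0 and 1 overlapped, and days 2 and 3 were each clear of the day before. Lfng rose 3.25-fold on day 2 (log2 1.70 ± 0.42 SE, adjusted p = 0.023, edgeR). The call was lost without day 1 replicate 1 (1.37, adjusted p = 0.105), day 2 replicate 1 (1.67, adjusted p = 0.111) or day 2 replicate 2 (1.74, adjusted p = 0.0786). Day 3 was 7.82-fold above day 0 (adjusted p = 0.000543). Presomitic mesoderm, where Lfng oscillates in the embryo, was little represented: Msgn1 had 0 counts in every library and the 7 mesoderm markers summed to at most 4.99 CPM from day 2 on.

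Mfng (chr15:78755882-78773475, minus strand), a fringe of developing neurons and lymphoid cells, had 5.73 and 2.68 CPM on day 0, 1.76 and 3.26 on day 1, 10.4 and 11.6 on day 2, 33.0 and 24.8 on day 3, and 30.4, 36.4 and 40.1 in the sorted cells. Its lowest library was at day 1, but days 0 and 1 overlapped and the difference was not called (log2 -0.75 ± 0.41 SE, adjusted p = 0.224, edgeR). With a GC offset it was called lower (-0.87, adjusted p = 0.012). Mfng rose 4.33-fold on day 2 (log2 2.12 ± 0.41 SE, adjusted p = 0.00784). Its log2 difference from day 2 to day 3 was 1.40 ± 0.39 SE with an adjusted p of 0.0781, and DESeq2 called it (adjusted p = 0.00276). The third fringe, Rfng, was between 6.54 and 23.5 CPM in the 11 libraries and edgeR called it in 0 of the 5 comparisons. For day 2 against day 1 DESeq2 called Rfng higher (0.92, adjusted p = 0.0291, against 0.0837 in edgeR). With a GC offset Rfng was lower on day 1 (-0.83, adjusted p = 0.00465) and at day 3 against day 0 (-0.62, adjusted p = 0.00814).

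Levels of different genes can be set side by side per transcript length, in FPKM (fragments per kilobase of transcript, scaled to library depth). The summed FPKM of the 3 receptors went from 13.3 ± 5.27 (SD, n = 2) at day 0 to 16.7 ± 4.81 on day 1, 45.9 ± 0.0451 on day 2, 68.7 ± 16.6 on day 3 and 63.6 ± 8.48 (n = 3) in the sorted cells. The 5 ligands summed to 6.85 ± 2.66, 12.0 ± 3.06, 38.9 ± 3.06, 60.6 ± 1.04 and 81.2 ± 7.51 FPKM. The 2 fringes summed to 3.41 ± 1.19, 3.45 ± 1.90, 13.7 ± 0.156, 30.5 ± 1.75 and 39.3 ± 2.74 FPKM. These sums are descriptions without a test. In CPM per kilobase of the longest transcript the order of days 0 and 1 turned for ligands (8.26 ± 1.99 and 6.98 ± 1.46, SD, n = 2) and fringes (3.98 ± 2.28 and 3.77 ± 1.49). On both scales all 3 classes were at their lowest at days 0 and 1, and ligands and fringes were highest in the sorted cells.

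The make-up of each class changed hands at day 1. Jag1 supplied 49.3% and 71.4% of ligand FPKM at day 0 and 8.48% and 6.23% at day 1, while Dll1 went from 27.0% and 18.9% to 79.2% and 71.5%. Dll1 then held between 61.4% and 75.6% in each of the 7 later libraries. Among receptors, Notch3 held 48.4% and 36.6% at day 0 and 10.2% and 15.2% at day 1, and Notch2 went from 24.9% and 30.2% to 68.1% and 52.8%. Notch1 held 41.6% ± 6.51 (SD, n = 3) of receptor FPKM in the sorted cells and Notch2 33.6% ± 1.72. That last order depends on the length used: with CPM per kilobase of the longest transcript, Notch2 led with 39.5% against 31.5% for Notch1. Jag1 leading at day 0, Dll1 from day 1 on, Notch3 on day 0 and Notch2 at days 1 to 3 held on both scales in the group means. Among fringes Lfng led at day 1 (60.0% ± 7.38 of FPKM) and Mfng at day 3 (61.9% ± 5.08) on both scales, and the order at day 2 differed between them (Lfng 47.5% of FPKM and 57.4% of CPM per kilobase).

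**Figure D4:**
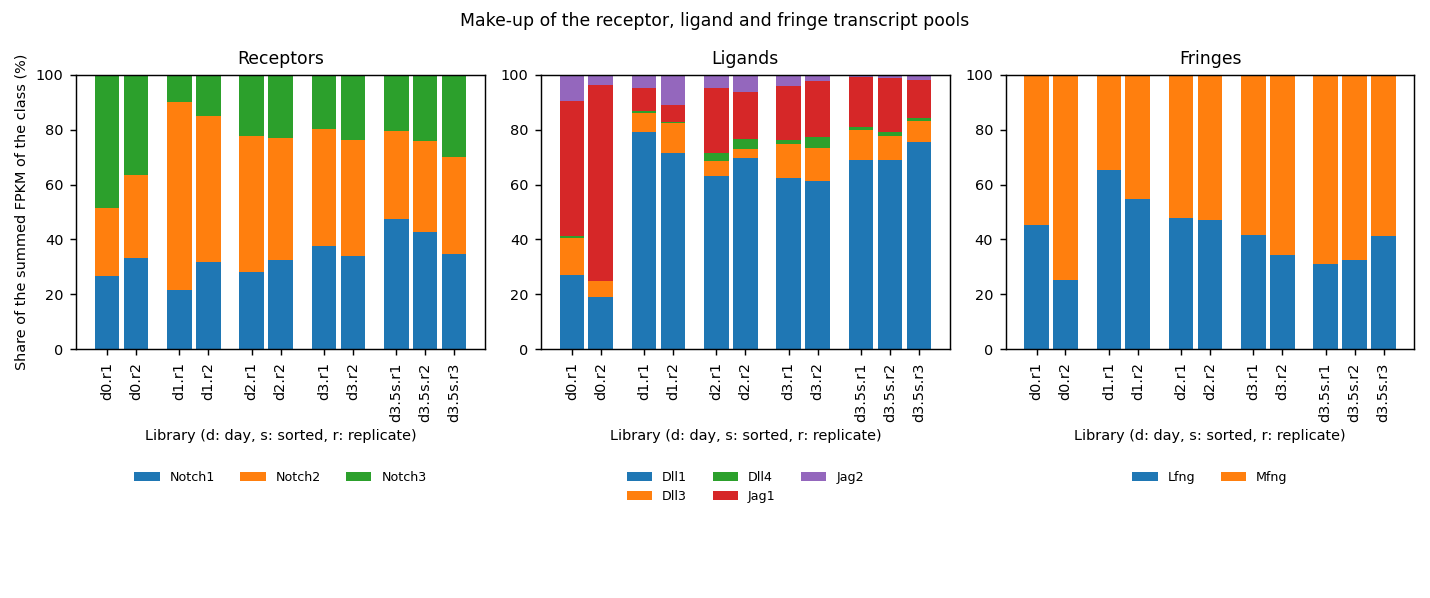
Stacked bars show the share (%) of each gene in the summed FPKM of its class in every library (x axis), for receptors, ligands and fringes. Jag1 fills most of the ligand bar in day 0 replicate 2 (71.4%), and Dll1 fills at least 61.4% of every ligand bar from day 1 on.

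No gene of the set passed the test between Prominin-1 sorted cells and whole day 3 cultures. In day 3.5 sorted against day 3, 0 of the 10 were called higher, where 0.435% of all genes tested were, and 0 lower, where 2.93% were (edgeR). At an unadjusted p under 0.05 edgeR had 2 of the 10, Dll1 on the higher side and Notch2 on the lower side. DESeq2 also called 0 after adjustment and had 2 at an unadjusted p under 0.05, and limma on the deposited log2 values had 0 by either rule. Dll1 was the 1 gene whose 3 sorted libraries all lay above both day 3 libraries, against 13.2% of all genes tested. Its log2 difference was 0.58 ± 0.23 SE (adjusted p = 0.24, edgeR). It passed with only the 5 libraries of these groups in the fit (0.57, adjusted p = 0.0452), without day 0 replicate 1 (adjusted p = 0.0449) or replicate 2 (0.0456), and with a GC offset (0.70, adjusted p = 0.0145). The GC offset also brought Notch1 past the threshold (0.70 against 0.53 ± 0.27 SE, adjusted p = 0.00164 against 0.394). The median log2 difference of the set was 0.24, and -0.01 over all genes tested. A missed threshold does not show that sorted and unsorted cells had equal levels.

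Several cell-type markers differed between the same 2 groups. Naive pluripotency markers were called lower in the sorted cells for 3 of 6 genes, and fibroblast markers for 2 of 6. Extraembryonic endoderm markers fell in 6 of 8 cases in the sorted cells, with sums of 34.3 to 39.8 CPM against 143 to 183 on day 3. Endothelial markers summed to between 12.0 and 19.3 CPM against 43.6 to 53.8, and Flt1 fell from 25.5 to 2.56 CPM. Dll4, made by endothelium among others, was at 3.32, 5.50 and 3.81 CPM in the sorted cells against 2.94 and 6.14, with log2 -0.10 ± 0.53 SE. Pericyte and smooth muscle markers summed to between 269 and 486 CPM against 607 to 822, with 0 of 6 genes called. Jag1 stood at a mean of 92.6 CPM against 76.0 and Notch3 at 169 against 150. Sorting, the code shared by the library names of each set, depth and day go together here and cannot be told apart.

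The rest of the pathway was followed through 8 lists with 47 genes, of which 45 were tested over days 0 to 3. On day 1, 7 were called higher and 5 lower (15.6% and 11.1% of the 45), near the 12.0% and 8.91% of all genes tested. On day 2, 16 were higher and 2 lower (35.6% and 4.44%, against 9.65% and 9.99%), and on day 3, 6 were higher and 1 lower against day 2 (13.3% and 2.22%, against 2.81% and 1.26%). For day 3 against day 0 the counts were 26 and 4 (57.8% and 8.89%, against 27.6% and 26.3%), with a median log2 difference of 1.03. In the sorted cells 0 of 44 were called against day 3 in edgeR, where 0.435% of all genes tested were higher and 2.93% lower. At an unadjusted p under 0.05, edgeR had 4 higher and 1 lower. DESeq2 called 2 higher and 0 lower, where it called 0.824% of all genes higher and 3.02% lower.

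Transcriptional targets of Notch joined the ligands and receptors on day 2. Hes1, Hes5, Hey1 and Hey2 rose then, 4 of the 5 target genes tested. Hes1, a repressor of proneural genes, had 20.3 and 52.7 CPM on day 0, 17.1 and 15.3 on day 1, and 58.1 and 52.5 on day 2. It fell on day 1 (log2 -1.18 ± 0.37 SE, adjusted p = 0.0497, edgeR) and rose on day 2 (1.77 ± 0.37, adjusted p = 0.0116). The day 1 call was kept in 6 of 18 alternative fits. It was lost with the deposited log2 values (adjusted p = 0.115), without day 0 replicate 2 (-0.33, adjusted p = 0.349), and without any 1 of the libraries of days 1, 2 and 3 (adjusted p from 0.0714 to 0.128). The day 2 call was lost without day 2 replicate 1 (1.70, adjusted p = 0.0626). The Hey2 call was kept in 10 of 16 fits and lost without day 1 replicate 1, either library of day 2, or day 3 replicate 2 (adjusted p from 0.0503 to 0.204). Unlike the 10 genes, Hes1 was the higher in replicate 2 on day 0. Hey1 had 1.55 and 1.51 CPM on day 1, 19.6 and 13.2 on day 2, and 82.2 and 67.2 on day 3. Hes5 was at most 0.212 CPM through day 1 and at 2.81 and 5.38 on day 2.

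Nrarp, a feedback inhibitor that destabilises the receptor's intracellular part, dipped on day 1, as Notch3 and Jag1 did but Notch2 and Dll1 did not. It had 3.90 and 2.72 CPM on day 0, 1.58 and 1.10 on day 1, 15.7 and 14.5 on day 2, and 39.0 and 49.8 on day 3. It fell on day 1 (log2 -1.32 ± 0.30 SE, adjusted p = 0.0154, edgeR), rose on day 2 (3.49 ± 0.30, adjusted p = 0.000186) and rose again on day 3 (1.56 ± 0.27, adjusted p = 0.0179). The day 1 call was lost without day 0 replicate 1 (adjusted p = 0.07) or day 1 replicate 2 (0.0699), and the day 3 call without any library of days 2 and 3 (0.0703 to 0.222). Rbpj encodes the DNA-binding partner of the cut receptor. It fell on day 1 from a mean of 158 to 86.7 CPM (log2 -0.87 ± 0.26 SE, adjusted p = 0.041) and was also called lower at day 3 than at day 0. The day 1 call was kept in 7 of 18 alternative fits, and was lost with the deposited log2 values (adjusted p = 0.058) and without day 0 replicate 2 (-0.46, adjusted p = 0.233), day 1 replicate 2, or any library of days 2 and 3. The coactivator Maml3 rose from 4.04 ± 0.188 CPM (SD, n = 2) at day 0 to 65.6 ± 14.1 on day 3 (log2 4.01 ± 0.27 SE, adjusted p = 7.37e-06), and Maml1 and Maml2 were called higher too.

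Of the 9 genes of the cleavage machinery, 3 rose on day 1 and 5 were higher at day 3 than at day 0. Of those 5, Aph1c (adjusted p = 0.0436, edgeR) was kept in 5 of 18 alternative fits. DESeq2 called 4 of the 9 higher at day 3 than at day 0, and limma on the deposited log2 values 6. In the edgeR fit of 8 libraries 0 were called on day 2 or between days 2 and 3. With a GC offset Adam10 (log2 0.57, adjusted p = 0.00293) and Ncstn (0.41, adjusted p = 0.0169) were called higher on day 2. With all 11 libraries in the fit, Ncstn was called higher on day 2 (adjusted p = 0.03) and Aph1c lower (-1.19, adjusted p = 0.0382). DESeq2 called 1 of the 9 higher between days 2 and 3. Adam10, the protease that makes the ligand-induced cut, went from 68.1 and 93.0 CPM on day 0 to 188 and 137 on day 1 (log2 1.00 ± 0.20 SE, adjusted p = 0.00979). Of the 4 ubiquitin ligases that activate ligands by endocytosis, Neurl1b rose on day 1 (0.777 to 4.49 CPM, adjusted p = 0.00275), and Mib1 was higher at day 3 than at day 0 (423 against 237 CPM, adjusted p = 0.00493). Among the 4 receptor maturation genes Pofut1, which adds the fucose that fringes extend, rose on day 2 (97.2 against 55.5 CPM, adjusted p = 0.0129). Notch4, the endothelial receptor outside the set, fell on day 1 from 4.34 and 5.61 to 1.19 and 0.753 CPM (log2 -2.37 ± 0.39 SE, adjusted p = 0.00405, edgeR). Unlike the 3 receptors of the set, Notch4 was called lower at day 3 than at day 0 (adjusted p = 0.00752, edgeR). That call was kept in 14 of 18 alternative fits. Day 2 against day 1 was not called for Notch4 (adjusted p = 0.531, edgeR).

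Proneural factors, which switch on Delta-like genes in the embryo, were called higher for 6 of 8 genes on day 2 and lower for Atoh1. Neurod4 had a mean of 0.195 CPM on day 1, 28.5 on day 2 and 140 on day 3, and it rose on both days (log2 7.12 ± 0.32 and 2.30 ± 0.22 SE, adjusted p = 1.81e-05 and 0.0026, edgeR). Neurog2 had 0.324 and 0.0941 CPM on day 1 and 6.59 and 12.8 on day 2 (adjusted p = 0.0043). On day 3, Neurod1, Neurod4 and Insm1 rose, and Neurog3 fell. Of these day 3 calls, Neurod1 was kept in 9 of 18 alternative fits, Neurog3 in 11, Insm1 in 13 and Neurod4 in 16.

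The genes whose levels followed the set most closely were ranked by Pearson's r of log2 CPM over the 11 libraries among 11166 genes. These correlations describe libraries that share days, depth and the replicate gap, and carry no test. Dll1 was most like Arhgap33 (r = 0.9939), Dll4 like the progenitor factor Sox3 (r = 0.9923), followed by Sall2 and the hedgehog inhibitor Sufu. Dll3 was most like the homeobox gene Lhx4 (r = 0.9898), Lfng like the cadherin gene Celsr2 (r = 0.9973) and Mfng like the long noncoding RNA Miat (r = 0.9925). Jag1 was most like Trib1 (r = 0.9786), with the cell-cycle gene Ccnd1 next. Notch1 was most like Bmp1 (r = 0.9943), Notch2 like Timp2 (r = 0.995), Notch3 like Igsf9 (r = 0.9933) and Jag2 like Zdhhc8 (r = 0.9844).

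Within the set, r over the 45 pairs ran from 0.293 (Jag1 with Jag2) to 0.985 (Mfng with Notch1), with a median of 0.857. Lfng and Dll1 were at 0.970. Jag1 was closer to Notch3 (0.935), the other gene with the day 1 fall, than to Notch2 (0.544).

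Exons of other annotated genes overlap 5 of the 10 genes, and the sources used here do not give the strand used in counting. On the opposite strand of Notch1, 0610009E02Rik had 3 to 18 counts in any library and Gm13568 had 0 to 4. Opposite Dll4, Gm14207 had 3 and 0 counts on day 0 and 0 and 3 on day 1, and at most 9 counts in any later library. Dll4 had 9 and 0, and then 4 and 13, on those first 2 days. The overlapping genes of Notch2 (Gm42820, on the same strand), Notch3 (Gm17276) and Dll1 (A930024N18Rik) were not in the count table under these symbols. Their counts therefore cannot be set beside those of the 3 genes.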

How the data were processed

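Polyadenylated RNA was sequenced from 11 libraries (2 each at days 0, 1, 2 and 3, and 3 at day 3.5). RNA came from a ZymoPure kit and libraries from an Illumina TruSeq kit, per the labels. Without roles, the submitters' processing notes list TopHat2 2.0.4, Cufflinks 2.1.1, HTSeq 0.6.1, limma, CASAVA and bcl2fastq 1.8.3, with mm10 and GRCm38 as builds. The sources used here do not give the annotation or the strand used in counting. The deposited count table was treated as a table of expected counts, since 104 of 38197 genes hold fractions, 0 of them among the 10 genes, and was rounded. The authors' deposited FPKM values and deposited log2 (voom) values were used for alternatives, and FPKM also for shares. The log2 values differed from ones recomputed from the counts by at most 5.15e-14.

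Counts were tested in edgeR 4.0.16 (R 4.3.3) with TMM scaling, filterByExpr (minimum count 10), the quasi-likelihood F test and Benjamini-Hochberg adjustment over all genes tested, with a threshold of 0.05. Days 0 to 3 were fitted on 8 libraries, and day 3.5 against day 3 on all 11, without a replicate block. The script was tested on simulated data. Alternatives used DESeq2 1.42.0, limma 3.58.1, other filters and scalings, a replicate block, a GC offset and the omission of each library. Totals of 13173674 to 30384599 counts set the precision. A count of 0 allows up to 3, for counting error only.

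The 10 genes, the 8 pathway lists, the 9 marker lists and the motifs were chosen with earlier results of these data known. All 10 genes were named in each comparison. From other lists up to 3 called genes with the smallest adjusted p were named, plus genes at 0, and members of lists are named beside their counts. Rfng, Hey2, Kdr, Atoh1 and further values of days outside a call were added after their values were seen. The 3 genes most like each gene were taken among genes reaching 5 CPM in a group mean.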

Additional observations from a re-analysis of the deposited data

How the results depend on the processing

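Over all alternatives, 828 of the gene values kept their direction and side of the threshold, 46 lost a call, 27 gained one and 29 reversed sign. For day 1 against day 0, 1 gene was called lower, not 2, on log2(FPKM + 1) with or without a filter and on log2(FPKM + 0.1), since Notch3 was lost. Of all genes, 4.75%, 2.98% and 4.31% were called lower in these settings, against 8.91% in the main fit. For day 2 against day 1, the 8 genes called higher became 5 on log2(FPKM + 0.1) and 3 on log2(FPKM + 1) without a filter. The share of all genes called higher also fell, from 9.65% to 5.53% and 2.9%. For day 3 against day 2, the 1 gene called higher (2.81% of all genes) became 3 without a filter on low counts (4.07%) and 2 in DESeq2 (3.77%). The count was 2 with all 11 libraries in the fit (5.66%) and 6 with a GC offset (8.29%). It was 0 with the deposited voom values (1.74%) and with each of the 3 FPKM settings (between 0.275% and 1.02%). For day 3 against day 0, the 10 (27.6% of all genes called higher) became 9 on filtered log2(FPKM + 1) (27.0%). The count was 8 with a GC offset (30.3%), on log2(FPKM + 0.1) (26.9%) and on unfiltered log2(FPKM + 1) (17.9%). For day 3.5 against day 3, the 0 called higher became 1 with only those libraries in the fit and 2 with a GC offset. Of all genes, 0.499% and 1.94% were called higher in these settings, against 0.435% in the main fit.

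With libraries left out singly, the share of all genes called also changed from fit to fit, and a lone library was assumed to vary like the other groups. The counts then ranged from 1 to 2 (lower, day 1 against day 0), 5 to 10 (higher, day 2 against day 1), 0 to 2 (higher, day 3 against day 2), 8 to 10 (higher, day 3 against day 0) and 0 to 1 (higher, day 3.5 against day 3). The 5 of day 2 came without day 2 replicate 2. Of the day 3 against day 2 counts, the 0 came without any library of day 2 or 3 and the 2 without any of day 0 or 1, which added Mfng.

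Signs reversed only where no call was made. For day 1 against day 0, Notch1 turned to 0.16 (log2(FPKM + 1), both filters), 0.18 (log2(FPKM + 0.1)) and 0.12 (voom), and Dll3 to 0.30, 0.67 and 0.34 under the same settings. Leaving out libraries, the log2 differences ran from -0.46 to 0.41 for Notch1, -0.65 to 1.20 for Dll3, -0.20 to 6.02 for Dll4, -0.26 to 1.81 for Jag2 and -0.05 to 1.36 for Lfng. Between days 2 and 3 they ran from -0.52 to 0.12 for Jag2 and -0.34 to 0.72 for Dll4. For day 3.5 against day 3 they ran from -0.04 to 0.37 for Notch3 and -0.53 to 0.53 for Dll4. In that comparison Dll3 turned to -0.02 (log2(FPKM + 1), both filters) and -0.03 (log2(FPKM + 0.1)), and Dll4 to 0.02 with a GC offset. The cause was not tested.

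Correlations of deviations from the group means ran from -0.451 to 0.386 for the same replicate number and from -0.386 to 0.451 for different numbers. In a group of 2 libraries the deviations mirror each other, so among days 0 to 3 each value recurs with its sign turned. These values therefore cannot show whether the replicate numbers pair the libraries. With the replicate block, 0 genes were called higher at day 3 over day 2 (Dll3, adjusted p = 0.0761) and 9 at day 3 over day 0 (without Jag2, adjusted p = 0.068). Of all genes, 1.68% and 25.5% were called higher there. Under the block Dll3 turned to 0.05 for day 1 against day 0, and Notch3 and Dll4 to -0.04 and 0.0033 for day 3.5 against day 3.

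Voom and FPKM values, which have no TMM scaling, moved the median of all genes by up to 0.159 on the log2 scale (day 3 against day 0, voom). The share of calls that were higher was 57.4% for day 1 against day 0 and 71.8% with voom or 71.3% on log2(FPKM + 0.1). It was 49.1% for day 2 against day 1 and 35.98% on unfiltered log2(FPKM + 1), 69.2% for day 3 against day 2 and between 50% and 82.3% on FPKM, and 12.9% for day 3.5 against day 3 and 27.8% with a GC offset. Shares of CPM per kilobase, an alternative chosen after the data were seen like the GC offset, lowered Notch1 among receptors at every day (14.7% at day 0, 12.8% at day 1, 17.6% at day 2, 22.1% at day 3, 31.5% at day 3.5) and Dll1 among ligands (16.5%, 62.5%, 46.6%, 45.5%, 52.5%). Shares by coding length were not run. With 2 libraries a group and few counts for Dll4, Dll3 and Jag2, small changes were not detectable at this depth.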
